A study of Mus musculus with 7 samples.

Results

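The kidney transporters that return filtered amino acids to the blood were followed in kidneys of mice without lamin B receptor (LBR), a protein of the inner nuclear membrane that binds heterochromatin. The 10 genes were chosen by symbol, as carriers of the proximal tubule and partner subunits, with earlier results of these data known. All 10 are among the 24328 symbols in the deposited tables. LBR-null mice carried the loss-of-function allele as Lbric-J/ic-J and the WT littermate was Lbr+/+. All mice were C57BL/6J, 4 weeks old, and all cells of an LBR-null mouse carry the mutation. Polyadenylated RNA of the pulverized right kidney was sequenced from 3 LBR-null mice (4001, 4002 and 4007, with 2, 1 and 2 libraries) and from 1 WT mouse (4009, with 2 libraries). The study compared them to ask how loss of LBR acts on genes with and without CpG islands. Values are normalized counts, that is, reads divided by the size factor of the library. Libraries were averaged per mouse and n counts mice. The single WT mouse gives no spread between WT animals.

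The proximal tubule takes up nearly all filtered amino acids in 2 steps. Carriers in the apical brush border bring them into the cell, mostly with sodium or protons, and exchangers in the basolateral membrane pass them on to the blood. Several exchangers are pairs of a heavy chain, which brings the complex to the membrane, and a light chain, which carries the amino acid. Inherited loss of single carriers causes aminoacidurias such as Hartnup disorder and cystinuria.

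The libraries held 20694016 to 26333284 reads on genes. The 10 transporters had between 20 and 17151 reads per library, and those other than Slc36a2 had at least 101. Paired libraries of a mouse differed in these genes by a median of 0.18 on the log2 scale in 4001, 0.09 in 4007 and 0.01 in WT. Markers of the proximal tubule were present in all mice but not level: the endocytic receptor Lrp2 had 11985 normalized counts in 4001, 7019 in 4002 and 5559.8 in 4007, where WT had 23320.0. The labels do not state sex. Xist, made from the inactive X chromosome, had 5785 normalized counts in 4001 and 9940.2 in 4007, but 65.3 in 4002 and 35.5 in WT. For Ddx3y of the Y chromosome, 4002 had 1516 and WT 1284, while 4001 had 141 and 4007 had 44.3. Mouse 4002 thus resembled WT in both genes. Mice 4001 and 4007 had high Xist together with some reads of Ddx3y, more of them in 4001, and whether the 4001 sample holds RNA of another animal was not tested. Values without 4001 or 4002 are given where leaving the mouse out moved a result most, and the Xist level of 4002 and the individual cannot be told apart.

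Across the 10 transporters, LBR-null kidneys had 1 gene above WT in every library, 5 genes below WT in every library and 4 genes whose libraries overlapped with WT or lay on both sides of it. The neutral amino acid transporter Slc6a19 was 5.69-fold higher in the LBR-null mean, but 1.39-fold in mouse 4002 alone. Slc7a13 was 4.67-fold lower and Slc36a2 2.41-fold lower. At least 2-fold lower means were thus seen for 2 of 10 transporters, against 8.80% of all expressed genes, and a 2-fold higher mean for 1 of 10, against 22.7%. The number 2-fold lower was 3 with TMM scaling, with the first library of each mouse, without mouse 4001, without mouse 4007 and in mouse 4002 alone. Every LBR-null library lay below both WT libraries for 5 of 10 transporters (Slc3a2, Slc7a8, Slc7a13, Slc1a1 and Slc36a2), against 21.4% of expressed genes. Every LBR-null library lay above for 1 (Slc6a19), against 22.2%. Many of the expressed genes have few reads. Among the 13058 genes with a mean of at least 50, the shares were 5.85% 2-fold lower, 5.77% 2-fold higher, 29.2% with every LBR-null library below and 22.1% with every one above. The median log2 fold change of the 10 transporters was −0.58, with −0.14 in 4001, −0.77 in 4002 and −0.75 in 4007, while the median over all 17283 genes tested was 0.01. The median was −0.80 without mouse 4001, −0.33 without 4002 and −0.48 without 4007. In whole kidney, fewer cells of a type and less RNA per cell cannot be told apart.

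**Figure D1:**
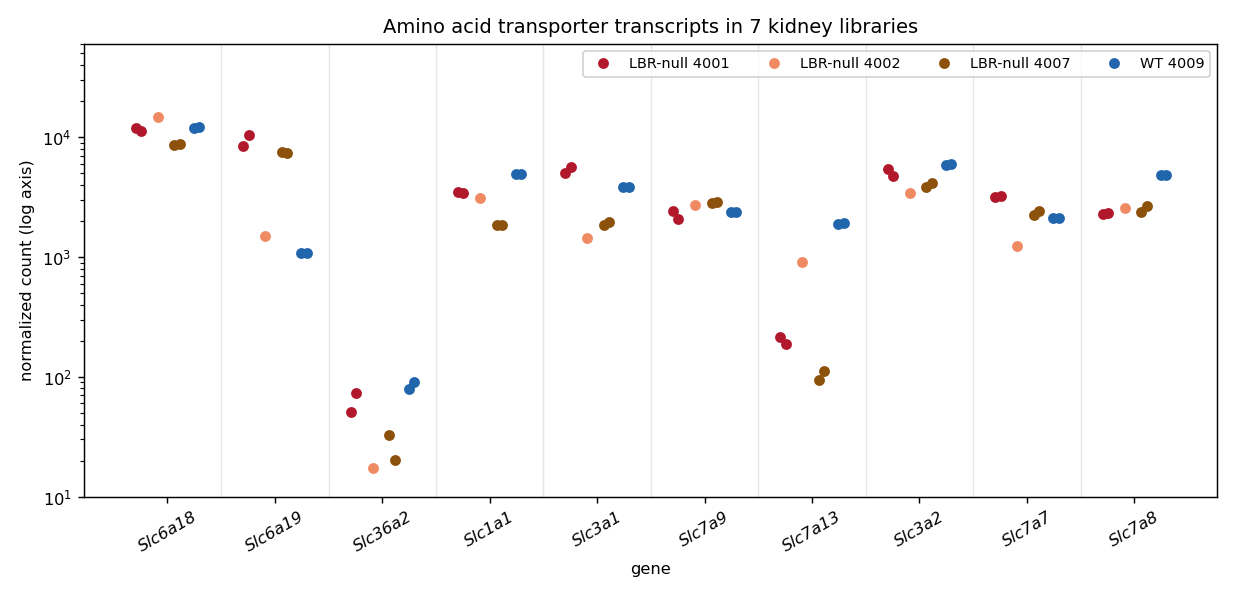
Normalized counts (log axis) of the 10 transporters, with 1 point per library and a color per mouse. Slc6a19 lies between 7417 and 10358 in mice 4001 and 4007 and between 1080.4 and 1506 in 4002 and WT, while Slc7a8 lies at 2267 to 2691 in every LBR-null library and at 4817 and 4864 in WT.

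Each gene whose mean reached 5 was tested with limma on log2(normalized count + 1) of the 4 mice, and log2 fold changes below are from this fit, with their standard error (SE), while plain folds are ratios of mean normalized counts. At an adjusted p under 0.05 (Benjamini-Hochberg) and a 2-fold change, limma called 0% of the genes tested and 0 of the 10 transporters. At an unadjusted p under 0.05 it found 2 transporters lower (Slc7a8 and Slc7a13), against 8.05% of all genes tested, and 0 higher, against 10.7%. On reads recovered by dividing each value by what 1 read is worth in its library, edgeR's quasi-likelihood test called 0.162% of genes and DESeq2 6.72%, and each called 0 of the 10 transporters. Both gave Slc7a8 an unadjusted p under 0.05. No transporter is therefore described below as having risen or fallen, and fold changes are read against the spread among LBR-null animals.

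Slc6a18 and Slc6a19 encode sodium-dependent carriers of neutral amino acids in the apical membrane. Slc6a19 is the carrier lost in Hartnup disorder. Both genes lie on the minus strand of chromosome 13 of mm9, Slc6a18 from 73799198 to 73815471 and Slc6a19 from 73817193 to 73842313, with 1721 bp between them. Slc6a19 overlaps the annotated gene 5430425J12Rik, and whether reads were counted by strand is not given in the sources used here. Slc6a19 was at 8511 and 10358 normalized counts in the libraries of mouse 4001, 1506 in 4002, 7591 and 7417 in 4007, and 1080.4 and 1081 in WT. All 5 LBR-null libraries were thus above WT, but mouse 4002 exceeded it 1.39-fold where mice 4001 and 4007 exceeded it 8.73- and 6.94-fold. The mean of 6148 ± 4134 (SD, n = 3 mice) gave a log2 fold change of 2.13 (SE 0.96, limma adjusted p = 0.301). Without mouse 4002, whose Xist and Y chromosome genes were near WT, the log2 fold change was 2.96. The LBR-null mice left then had high Xist and the WT mouse low Xist, so genotype and Xist level cannot be told apart. Over all alternatives the adjusted p of Slc6a19 ran from 0.00539 to 0.554. With mouse 4002 left out, limma called 338 genes higher and 287 lower over all genes, and the 2 remaining LBR-null mice leave 1 residual degree of freedom.

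The neighboring Slc6a18 did not follow Slc6a19. It was at 11959 and 11230.0 in 4001, 14746 in 4002, 8611 and 8775 in 4007, and 12012 and 12106 in WT. Mouse 4002 was above WT and the other LBR-null mice below it, with a log2 fold change of −0.08 (SE 0.39, limma adjusted p = 0.938), which turned to 0.12 without mouse 4007. Per kilobase of exon, Slc6a18 exceeded Slc6a19 12.7-fold in WT and 11.1-fold in mouse 4002, but 1.41-fold in mouse 4001 and 1.32-fold in mouse 4007. This ratio is taken within a library and does not depend on the scaling of libraries.

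In kidney, both carriers depend on collectrin, a membrane protein whose gene is listed under its older symbol Tmem27, for their place in the brush border. Tmem27 was at 4466 normalized counts in mouse 4001, 3211 in 4002, 2472 in 4007 and 14604 in WT, 4.32-fold lower in the LBR-null mean (log2 fold change −2.15, SE 0.37, limma adjusted p = 0.0917). The 3 LBR-null mice were each below WT for Tmem27 and above it for Slc6a19. Among them the genes did not run opposite to each other, as mouse 4001 had the highest level of both (9434 for Slc6a19). The ratio of Slc6a19 to Tmem27 per kilobase was 0.0233 and 0.0223 in the WT libraries, 0.145 in 4002, 0.558 and 0.755 in 4001 and 0.919 and 0.955 in 4007.

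Slc3a1 encodes the apical heavy chain rBAT. With the light chain Slc7a9 it takes up cystine and basic amino acids, and loss of either gene causes cystinuria. Slc3a1 spans 85427687 to 85463583 on chromosome 17 of mm9. It was at 5041 and 5641 normalized counts in mouse 4001, 1438 in 4002, 1864 and 1956 in 4007, and 3851 and 3809 in WT. Mouse 4001 was above WT and the others below it, so the groups overlapped. The log2 fold change was −0.65 (SE 0.69, limma adjusted p = 0.661) and depended on which mouse was left out. It was −1.21 without mouse 4001 (limma adjusted p = 0.0342), −0.26 without 4002 (0.842) and −0.47 without 4007 (0.910), and the adjusted p ran from 0.0342 to 0.910 over all alternatives. Without mouse 4001, limma called 505 genes higher and 658 lower over all genes. The gene overlaps Prepl in the annotation.

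Slc7a9, on chromosome 7 from 36234056 to 36251055, stayed near WT in every mouse, with log2 fold changes of −0.07, 0.20 and 0.27 in 4001, 4002 and 4007. It stood at 2416 and 2096 in 4001, 2710.1 in 4002, 2817 and 2877 in 4007, and 2360.1 and 2368 in WT, a log2 fold change of 0.13 (SE 0.26, limma adjusted p = 0.821). The ratio of Slc3a1 to Slc7a9 per kilobase was 2.75 in 4001, 0.610 in 4002, 0.771 in 4007 and 1.86 in WT. In WT and in mouse 4001 the heavy chain thus had more reads per kilobase than its light chain, and in mice 4002 and 4007 it had fewer.

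Slc7a13 encodes a light chain that carries aspartate, glutamate and cystine in the straight part of the proximal tubule and also pairs with rBAT. It lies on chromosome 4 from 19745872 to 19769365. Its level was 217 and 188 normalized counts in mouse 4001, 917 in 4002, 94.1 and 112 in 4007, and 1886 and 1921 in WT. All LBR-null libraries were below WT, 9.40-fold in mouse 4001, 2.08-fold in mouse 4002 and 18.5-fold in mouse 4007. The mean was 407 ± 444 (SD, n = 3 mice), with a log2 fold change of −2.82 (SE 1.07, limma adjusted p = 0.229). Without mouse 4002 it was −3.71, where the mice left had high Xist and WT low Xist, so genotype and Xist level cannot be told apart. The log2 fold change was −2.62 without 4001 and −2.14 without 4007. Over all alternatives the adjusted p ran from 0.00578 to 0.497. Mice 4001 and 4007, with high Xist, had the lowest values. Mouse 4002, with Xist near WT and a single library, was 2.08-fold below the single WT mouse. The part of Xist level was not tested. The ratio of Slc3a1 to Slc7a13 per kilobase was 1.46 in 4002 and 1.87 in WT, but 24.7 in 4001 and 17.3 in 4007.

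The genes most like Slc7a13 over the 7 libraries, among 11831 with a mean of at least 100, were Ccnd1 (Pearson r = 0.997), Atp11a (0.996) and Klc2 (0.995). Atp11a, a gene high in the straight proximal tubule, was at 4479 in 4001, 7402 in 4002, 3672 in 4007 and 9360.4 in WT. For Slc6a19 they were Plch1 (0.996), Dhtkd1 (0.995) and Cyp4b1 (0.994), and Cyp4b1 was at 3484, 1046, 2832 and 783 in the same order. For Slc36a2 they were Cd99l2 (0.995), Slc22a5 (0.992) and Rwdd2b (0.989). The libraries come from 4 mice, so these correlations are descriptions.

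Slc3a1 is also the transporter whose RefSeq promoter held the HNF4 motif CAAAGTCCA on either strand, as 0.384% of 32851 promoters do in the 250 bases before the start. HNF4 is a tubule transcription factor whose gene Hnf4a was at 9512 ± 2691 normalized counts (SD, n = 3) and 11809.6 in WT, and the stretch is shown for the position of this match, in capitals, 39 to 31 bases before the start. The bases, from RefSeq, lie by exact match on the plus strand of mm9 at chr17:85427437-85427686.
Slc3a1: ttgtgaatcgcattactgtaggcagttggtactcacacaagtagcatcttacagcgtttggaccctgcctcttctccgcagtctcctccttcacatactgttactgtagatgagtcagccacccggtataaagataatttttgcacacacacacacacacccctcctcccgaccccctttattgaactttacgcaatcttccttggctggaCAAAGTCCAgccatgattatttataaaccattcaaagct
None of the other 6 transporters with an entry in the table held this motif in the 250 bases before a RefSeq start. Slc6a18, Slc7a13 and Slc36a2 have no entry there. The entry of Slc6a19 lies inside its mm9 gene model and is not described further.

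**Figure D2:**
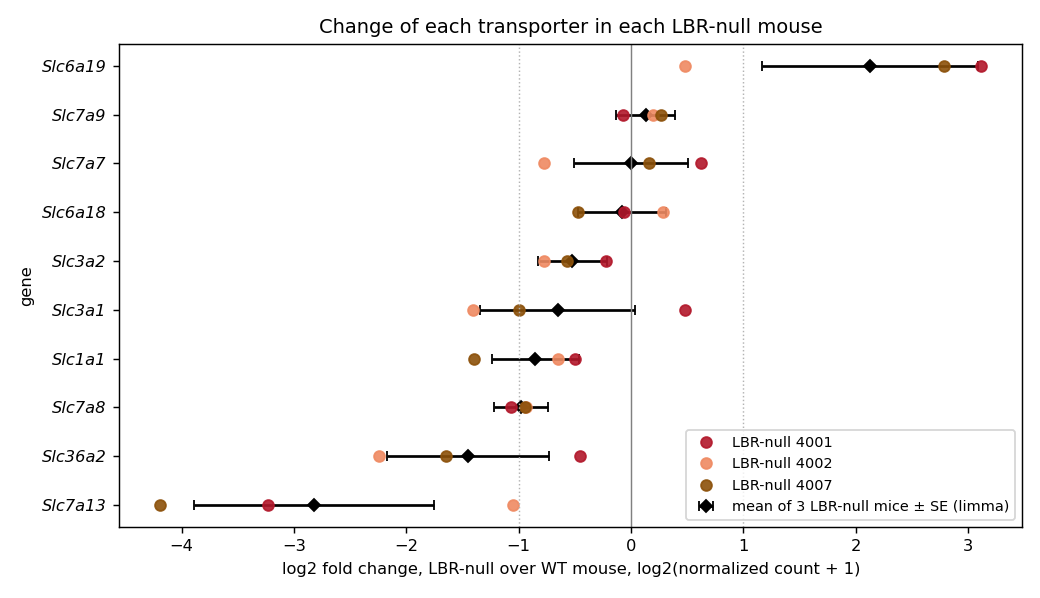
Log2 fold change of each transporter in mice 4001, 4002 and 4007 relative to WT, with the mean of the 3 mice and its limma standard error. Dotted lines mark a 2-fold difference. The 3 mice lie close together for Slc7a8 (−1.07 to −0.93) and far apart for Slc6a19 (0.48 to 3.12) and Slc7a13 (−4.19 to −1.05).

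Slc1a1 encodes the sodium-dependent carrier of glutamate and aspartate in the apical membrane, whose loss causes dicarboxylic aminoaciduria. It lies on chromosome 19 from 28909539 to 28988450. It was at 3501 and 3449 normalized counts in mouse 4001, 3133 in 4002, 1865 and 1863 in 4007, and 4929.7 and 4900.4 in WT. All 5 LBR-null libraries lay below WT, by 1.41-fold in mouse 4001, 1.57-fold in mouse 4002 and 2.64-fold in mouse 4007. The log2 fold change was −0.85 (SE 0.39, limma adjusted p = 0.308). The gene overlaps 2 other annotated genes.

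Slc36a2 encodes a proton-coupled carrier of glycine and proline and was the least abundant of the 10. It was at 50.5 and 73.7 normalized counts in mouse 4001, 17.2 in 4002, 32.6 and 20.1 in 4007, and 79.5 and 90.5 in WT, from 20 to 101 reads per library. All LBR-null libraries lay below WT, mouse 4001 by 1.37-fold and mouse 4002 by 4.94-fold. The log2 fold change was −1.45 (SE 0.72, limma adjusted p = 0.342), and −1.95 without mouse 4001 with an adjusted p of 0.0465 (0.0465 to 0.672 over the alternatives that tested it). Without 4002 it was −1.05 (limma adjusted p = 0.389) and without 4007 −1.34 (0.672). Libraries of 1 mouse differed in this gene by up to 0.67 on the log2 scale, the widest gap of the 10 transporters in each mouse with 2 libraries.

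On the basolateral side, Slc3a2 encodes the CD98 heavy chain, the partner of the light chains Slc7a7 and Slc7a8. Slc3a2, on chromosome 19 from 8781372 to 8797859, was at 5408 and 4746 in 4001, 3453 in 4002, 3819 and 4138 in 4007, and 5808 and 6002 in WT. Each LBR-null library was below WT, by 1.16- to 1.71-fold in the mouse means (log2 fold change −0.52, SE 0.31, limma adjusted p = 0.414).

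Slc7a8 encodes LAT2, an exchanger of neutral amino acids, and lies on chromosome 14 from 55341053 to 55400723. It was at 2267 and 2329 normalized counts in mouse 4001, 2541 in 4002, 2365 and 2691 in 4007, and 4864 and 4817 in WT. The LBR-null mean of 2455 ± 136 (SD, n = 3 mice) was 1.97-fold below WT, and 4002, with Xist near WT, lay within the range of the libraries of 4001 and 4007. Its span between the LBR-null mice was the narrowest of the 10, with a log2 fold change of −0.98 (SE 0.24, limma adjusted p = 0.116). The adjusted p was 0.125 with edgeR and 0.0123 with DESeq2, whose fold change stayed just short of 2. Over all alternatives it ran from 0.0123 to 0.397, under 0.05 in 2 of 14.

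Slc7a7 encodes the exchanger of basic for neutral amino acids that is lost in lysinuric protein intolerance. It lies on chromosome 14 from 54989128 to 55032856, 308 kb from Slc7a8, and overlaps Oxa1l. It was at 3197 and 3258 in 4001, 1234 in 4002, 2254 and 2445 in 4007, and 2109 and 2099.7 in WT. Mice 4001 and 4007 were above WT and mouse 4002 1.71-fold below it, so no common direction was seen (limma adjusted p = 0.999). The ratio of Slc3a2 to Slc7a7 per kilobase was 2.15 in both mouse 4002 and WT, and 1.21 and 1.30 in mice 4001 and 4007. The ratio of Slc3a2 to Slc7a8 was 2.34 ± 0.604 (SD, n = 3 mice) against 1.66 in WT, with all 5 LBR-null libraries higher than WT.

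**Figure D3:**
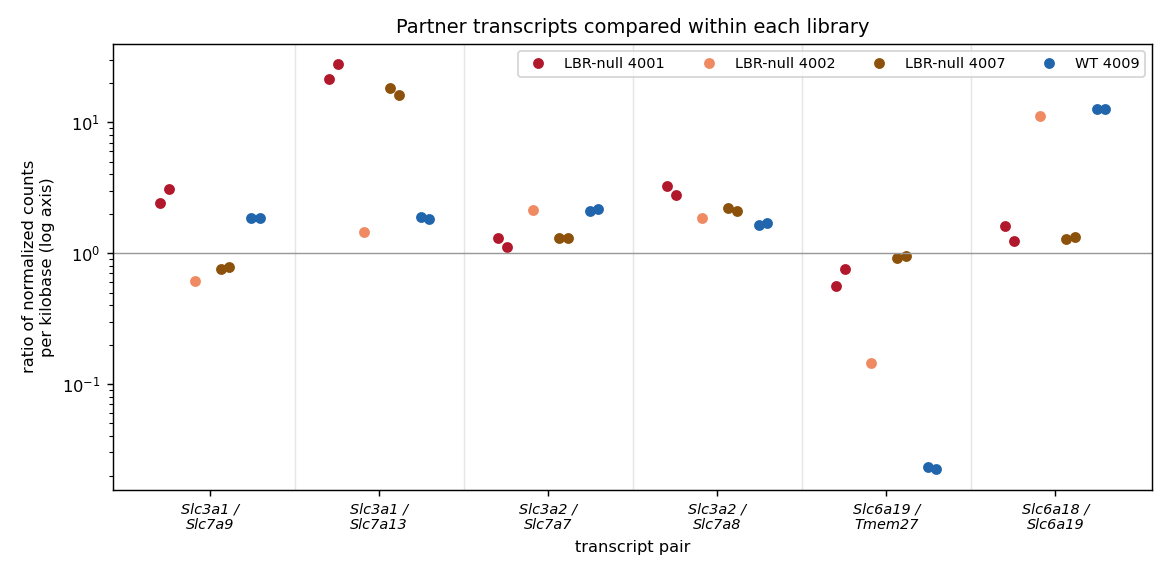
Ratios of normalized counts per kilobase of exon (log axis) for transcripts whose proteins work together, and for the neighbors Slc6a18 and Slc6a19, with 1 point per library. Mouse 4002 sits beside WT for Slc3a1 to Slc7a13, Slc3a2 to Slc7a7 and Slc6a18 to Slc6a19, and every LBR-null library sits above WT for Slc6a19 to Tmem27.

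The study divides genes by CpG islands at the start site and in the gene body, which were not sought here. The stretches before the RefSeq starts of Slc7a8 and Slc1a1, both below WT in every LBR-null library, are shown for their CpG content, with each CpG in capitals. That of Slc7a8 lies on the minus strand of mm9 at chr14:55400724-55400973, and that of Slc1a1 on the plus strand at chr19:28909375-28909538, where it stops before the first annotated exon.
Slc7a8: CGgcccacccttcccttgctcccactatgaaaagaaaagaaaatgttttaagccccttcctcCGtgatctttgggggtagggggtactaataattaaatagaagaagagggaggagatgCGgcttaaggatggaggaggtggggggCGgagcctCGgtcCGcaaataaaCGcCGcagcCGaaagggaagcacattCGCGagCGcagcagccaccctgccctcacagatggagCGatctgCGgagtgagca
Slc1a1: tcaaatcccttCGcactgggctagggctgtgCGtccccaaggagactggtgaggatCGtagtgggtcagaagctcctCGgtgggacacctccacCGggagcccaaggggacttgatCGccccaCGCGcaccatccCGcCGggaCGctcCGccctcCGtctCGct
Over 250 bases the observed over expected CpG ratio was 0.736 for Slc7a8 and 0.873 for Slc1a1, higher than in 76.0% and 86.5% of all promoters. It was 0.641 for Slc3a2, 0.513 for Slc3a1, 0.268 to 0.473 over 5 entries of Slc7a7, and 0.325 and 0.353 for both entries of Slc7a9, against a median of 0.373 over all promoters. CpG content was not compared with the difference from WT.

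Levels of different transporters were compared per kilobase of exon. In WT the order was Slc6a18 (2738 normalized counts per kilobase), Slc3a2 (1996), Slc3a1 (1660.2), Slc7a8 (1200.2), Slc7a7 (927), Slc7a9 (892), Slc7a13 (889), Slc1a1 (797), Slc6a19 (216) and Slc36a2 (26.1). Slc6a18 was first and Slc36a2 last in all 4 mice. Slc6a19 was ninth in WT and in mouse 4002 and among the first 3 in mice 4001 and 4007. In the LBR-null mean, Slc6a18 led with 2651 ± 687 per kilobase (SD, n = 3 mice). The next levels were 1409.6 ± 280.1 for Slc3a2, 1255 ± 923 for Slc3a1, 1228 ± 826 for Slc6a19 and 982 ± 117 for Slc7a9. Slc7a7, at 1422, 544 and 1035 per kilobase in 4001, 4002 and 4007, averaged between Slc6a19 and Slc7a9, and neighbors in this run differed by less than their SD. Below them came Slc7a8 at 609 ± 33.8, Slc1a1 at 458 ± 138, Slc7a13 at 190.3 ± 207 and Slc36a2 at 10.8 ± 7.29. The summed normalized counts of the 10 were 42968 in 4001, 31695 in 4002, 31802 in 4007 and 39087 in WT. Slc6a19 made up 22.0%, 4.75%, 23.6% and 2.76% of these sums.

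Other carriers of amino acids and peptides were taken from a list of 37 genes, of which 35 could be tested. Of the 37, 5 were at least 2-fold lower and 8 at least 2-fold higher, where the shares were 8.80% and 22.7% of all expressed genes and 5.85% and 5.77% of genes with a mean of at least 50. The median log2 fold change was 0.21. At an unadjusted p under 0.05 limma found 5 lower and 6 higher, against 8.05% and 10.7% of all genes tested, and called 0 after adjustment. Slc7a12, a relative of Slc7a13, was at 55.1 normalized counts in mouse 4001, 153 in 4002, 24.5 in 4007 and 1235 in WT, 15.9-fold lower in the mean (log2 fold change −4.36, SE 0.90, limma adjusted p = 0.107). Each LBR-null mouse lay below WT. Slc6a20b, a relative of the proline carrier Slc6a20a with which it may share reads, was at 809.6 ± 260.2 (SD, n = 3 mice) against 2548. Slc6a12, a betaine and GABA carrier, was at 236 ± 197 against 517, and mouse 4002, at 461, was near WT. Slc43a1, a carrier of large neutral amino acids, was at 456 in 4001, 331 in 4002, 781 in 4007 and 72.3 in WT, 7.23-fold higher in the mean (log2 fold change 2.74, SE 0.48, limma adjusted p = 0.0938). The cystine and glutamate exchanger Slc7a11 was at 34.5 ± 24.7 (SD, n = 3 mice) against 11.7, and the peptide carrier Slc15a1 at 57.8 ± 12.9 against 23.6.

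**Figure D4:**
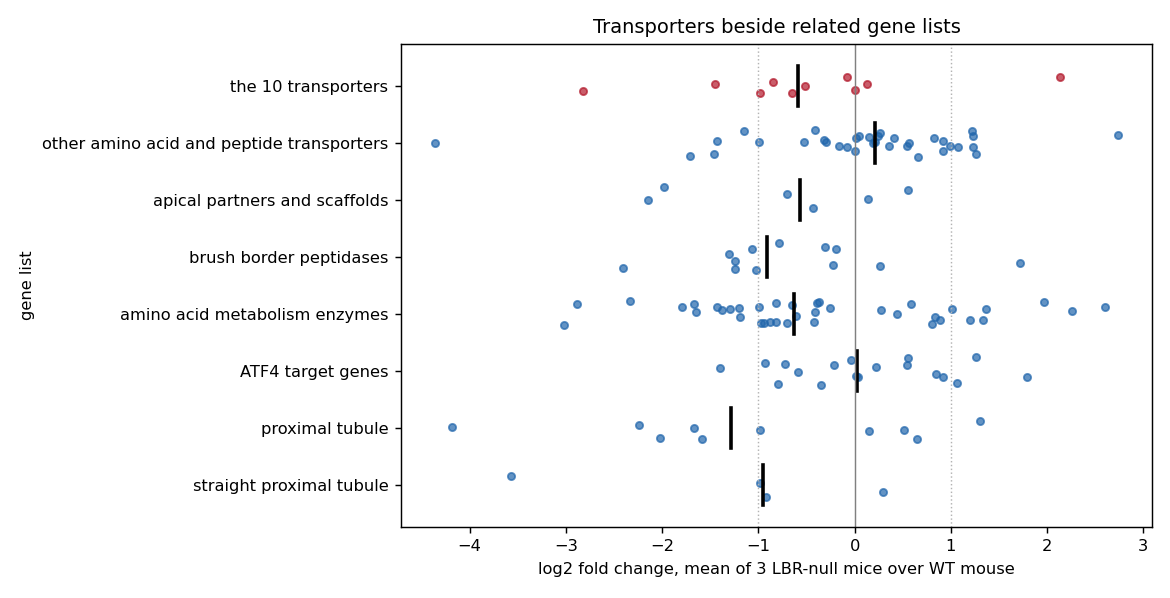
Log2 fold change (mean of the 3 LBR-null mice over the WT mouse) of each tested gene in the 10 transporters and in 7 related lists. Black bars mark list medians, at −0.58 for the 10 transporters and 0.21 for the other amino acid and peptide transporters, and dotted lines mark a 2-fold difference.

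The list of apical partners and scaffolds, which holds Tmem27, had a median log2 fold change of −0.57. Pdzk1, a PDZ scaffold that binds brush border transporters, was at 8493 in 4001, 8757 in 4002, 5218 in 4007 and 28699.7 in WT (log2 fold change −1.98, SE 0.40, limma adjusted p = 0.103). Of 6 genes in this list, 2 were 2-fold lower and 0 were 2-fold higher, against 8.80% and 22.7% of all expressed genes (5.85% and 5.77% at a mean of at least 50). Slc9a3r1, a related scaffold, was at 4466 ± 639 (SD, n = 3 mice) against 7227.

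Brush border peptidases release amino acids from filtered peptides for uptake by these carriers. Of 12 such genes, 6 were 2-fold lower and 1 was 2-fold higher. The shares were 8.80% and 22.7% of all expressed genes, and 5.85% and 5.77% at a mean of at least 50. Every LBR-null library lay below WT for 8 of the 12, against 21.4% (29.2% at a mean of at least 50). The median log2 fold change was −0.91. Aminopeptidase N (Anpep) was at 1691 in 4001, 2191 in 4002, 806 in 4007 and 3571 in WT, and the meprin subunit Mep1b at 1941, 3574, 1113 and 4683. Naaladl1, the lowest by fold change, was at 5.60 ± 3.57 (SD, n = 3 mice) against 29.8. Folh1, a carboxypeptidase that removes glutamate, was at 9605, 2284, 4889 and 1445 in the same order of mice, above WT in each. Its values, like those of Slc6a19, were highest in mice 4001 and 4007. Xpnpep2 and Mme overlapped between the groups.

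Enzymes that use amino acids inside the tubule cell went both ways. Of 38 genes, 11 were 2-fold lower and 7 were 2-fold higher, against 8.80% and 22.7% of all expressed genes and 5.85% and 5.77% of those with a mean of at least 50. All 5 LBR-null libraries were under WT for 22 and over it for 13. The shares were 21.4% and 22.2% of all expressed genes, and 29.2% and 22.1% at a mean of at least 50. Limma found 18 lower and 5 higher at an unadjusted p under 0.05, against 8.05% and 10.7%, and called 0 after adjustment. Gatm, which makes the creatine precursor guanidinoacetate from arginine and glycine, was at 1963 in 4001, 1517 in 4002, 1289.5 in 4007 and 12690.0 in WT, 7.98-fold lower in the mean (log2 fold change −3.02, SE 0.30, limma adjusted p = 0.0607). Gamt, the next enzyme of creatine synthesis, was at 109 ± 79.5 (SD, n = 3 mice) against 693. Acmsd, an enzyme of tryptophan breakdown, was at 462 ± 40.7 against 2325 (limma adjusted p = 0.0675). Higher levels were seen for Gldc, the glycine decarboxylase, at 4987 ± 2338 (SD, n = 3 mice) against 745, for Bhmt, which passes a methyl group from betaine to homocysteine, at 831 ± 274 against 166, and for Hpd of tyrosine breakdown, at 6427 ± 2408 against 1553.

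ATF4 is the transcription factor that answers a shortage of amino acids, and Slc3a2 is among its known targets. Of 18 other target genes, 1 was 2-fold lower and 3 were 2-fold higher, against the same 8.80% and 22.7% of all expressed genes and 5.85% and 5.77% of those with a mean of at least 50, with a median log2 fold change of 0.03. Trib3 averaged 136 ± 43.6 (SD, n = 3 mice), with 37.4 in WT, and Cebpb was at 1541 ± 559 against 708, while Phgdh, an enzyme of serine synthesis, was at 421 ± 169 against 1057. Shmt2 and Mthfd2 of one-carbon metabolism were at 1789.8 ± 468 and 130.1 ± 28.8 against 3349 and 224.

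Other genes of the proximal tubule also lay above or below WT. Of 10 proximal tubule markers, 5 were 2-fold lower and 1 was 2-fold higher, against 8.80% and 22.7% of all expressed genes (5.85% and 5.77% at a mean of at least 50), and their summed normalized counts ran from 142851 to 192555 in LBR-null libraries and from 252339.7 to 253228 in WT. Miox, an enzyme of inositol breakdown, was at 4148 ± 2989 (SD, n = 3 mice) against 64151, Slc13a3, a carrier of dicarboxylates, at 2405 ± 878 against 10847, and the glucose carrier Slc5a2 at 1509 ± 975 against 5317. Slc5a12, a lactate carrier, was at 11677 ± 3408 against 4579.7, Aqp1 at 27527 ± 8498 against 17029 and Slc27a2 at 74463 ± 15481 against 51706, each above WT in every LBR-null mouse. Of 4 genes of the straight part, 1 was 2-fold lower, Slc22a19, at 134 ± 84.5 against 1357, and Slc5a8 was at 1509 ± 685 against 2731. Cyp7b1, the highest of this list by fold change, was at 143 ± 5.11 against 117, with each mouse mean above WT. All 7 neutrophil markers had means at least 2-fold higher, against 22.7% of all expressed genes and 5.77% of those averaging at least 50. Of the 7, 6 lay above WT in every LBR-null library, against 22.2% and 22.1%. The exception, Ltf, was at 10.3 in mouse 4002 and 17.2 in WT. The sums of the 7 were 396 to 2600.2 in LBR-null libraries against 76.9 and 84.3 in WT. All 4 markers of proliferating cells were at least 2-fold lower, against 8.80% of all expressed genes and 5.85% of those averaging at least 50. Their sums were 139 to 355 against 1951 and 1959. Macrophage markers summed to 2068 to 2524 against 3497 and 3549.8, stroma markers to 13999 to 26959.7 against 38179 and 38922, and podocyte markers to 7877 to 16789.9 against 19898 and 19954. Within the stroma list the mean of Dcn was 2.03-fold higher, at 8777 in 4001, 2749 in 4002, 5872 in 4007 and 2862 in WT. Within the podocyte list the mean of Wt1 was 1.40-fold higher, at 474, 1329, 1408 and 765 in the same order. The liver genes Alb, Apoa1 and Ttr summed to 3428 to 16406 against 4534 and 4755, highest in mouse 4001. None of these lists had a gene at 0 in all libraries. The part of cell makeup, of Xist level and of single mice in the transporter values was not tested.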

How the data were processed

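The 7 kidney libraries (poly(A) selection, paired-end reads) were aligned to mm9 by the authors with STAR 2.6.0. The deposited values are a normalized signal for each symbol, obtained by dividing reads by size factors of DESeq2 1.25.1. The counting program and gene annotation are not given in the sources used here. All values (100.0%) were whole multiples of the lowest step of their library within 0.01 read, and 1 read was worth 0.787 to 1.15 normalized counts, so reads were recovered by division.

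Libraries were averaged within a mouse. limma 3.58.1 (R 4.3.3, eBayes with a trend, Benjamini-Hochberg over 17283 genes) was fitted to log2(normalized count + 1), with 2 residual degrees of freedom, and assumes that the lone WT mouse varies like the LBR-null mice. Log2 changes on this scale understate those of low genes. edgeR 4.0.16 and DESeq2 1.42.0 on reads summed per mouse, other scalings, filters and a pseudocount of 5, and leaving out each mouse, were alternatives, and DESeq2 gave 16612 genes an adjusted p. The 2-fold rule compares group means among 21468 genes above 0 in either group. The scripts were tested on simulated counts.

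Exon lengths and mm9 positions come from GENCODE M1, and promoter sequences from the RefSeq table (GRCm38.p6), which held 7 of the 10 genes, with mm9 positions by exact match. Genes were named from the 10 transporters, the 3 lowest and 3 highest tested genes of each list, the sex-linked genes, and for each transporter with a 2-fold difference the 3 genes most like it. Lrp2 is named beyond this rule as a marker. The members and lists were chosen with earlier results of these data known. Markers of principal, intercalated, endothelial, thick limb, distal and adrenal cells had median log2 fold changes of 0.41, −0.48, −0.27, 0.21, −1.61 and 1.17. Symbols on 2 lines were kept apart. Some genes of the lists are not reported here.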

Additional observations from a re-analysis of the deposited data

Results flagged for a closer look

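For the 10 transporters and 6 ratios, the 5 LBR-null libraries were searched for one that stands apart, and 3 of these 16 measures had one, each time mouse 4002. The usual chance rate of 1 in 20 does not hold here, since the libraries come from 3 animals. Mice 4001 and 4007 each have a second library close by and 4002 has none, so the design leaves 4002 as the library to stand apart, and its choice is no result. Slc7a13 had 917 normalized counts in 4002, where the remaining libraries had 94.1 to 217. The ratio of Slc3a2 to Slc7a7 per kilobase was 2.15 in 4002 and 1.12 to 1.30 in the rest. The ratio of Slc6a18 to Slc6a19 was 11.1 in 4002 and 1.23 to 1.60 in the rest. In WT these measures were 1904, 2.15 and 12.7.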

How the results depend on the processing

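The number of transporters called by limma was 0 under every scaling, pseudocount, filter and count test tried, and ran from 0 to 2 when 1 LBR-null mouse was left out (Slc3a1 and Slc36a2 without mouse 4001, Slc6a19 and Slc7a13 without mouse 4002). Without mouse 4002 the LBR-null mice left had high Xist and WT low Xist, so genotype and Xist level cannot be told apart. Transporters above both WT libraries numbered 1 to 2 when 1 mouse was left out. In mouse 4002 alone, chosen as an alternative after the data were seen, 0 transporters were 2-fold higher. The share of all genes that were so in that mouse was not worked out, so this count is no result about the transporters. The log2 fold change of Slc7a7, 0.0019 with all mice, turned to −0.0047 with equal library totals, −0.03 with TMM scaling and with first libraries, −0.0013 without the second WT library, −0.31 without mouse 4001 and −0.08 without mouse 4007, and that of Slc6a18 to 0.12 without mouse 4007. The cause was not tested. Leaving out 1 mouse gave medians of −0.80 to −0.33 for the 10 transporters, and −0.26 to 0.12 for Slc6a18 and −0.31 to 0.39 for Slc7a7. Over all genes limma called 0, edgeR 28 and DESeq2 1117, and limma 505 higher and 658 lower without mouse 4001 and 338 and 287 without 4002. With a mean of at least 50, Slc36a2 was not tested. No paired analysis was possible because the replicate numbers in the labels count libraries of 1 mouse and pair no mice across genotypes. With 1 WT mouse, differences below the spread between LBR-null mice cannot be resolved, and Slc36a2 rests on few reads.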
